A study of Mus musculus with 14 samples.

Results

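The *Ms4a* genes of the chromosome 19 cluster were described in sorted colonic macrophages of mice with and without the IL-10 receptor. Members were the cluster genes written in the deposited table in capitals as MS4A4A, MS4A4B, MS4A4C, MS4A4D, MS4A6B, MS4A6C, MS4A6D, MS4A7 and MS4A8A, which made 9 of its 24982 genes, and all 9 were among the 13136 genes with enough reads to test. All mice were C57BL/6, 5 weeks old, and carried *Cdcs1*, a locus that raises susceptibility to colitis. WT mice (*Cdcs1*) carried no other listed allele, IL10RAKO mice were Cdcs1, Il10ra -/-, DKO mice were Cdcs1, Il10ra -/-, Ccr2 -/-, and the CCR2KO mouse was Cdcs1, Ccr2 -/-. Both deletions are germline and therefore present in every cell of the animal, and the *Il10ra*-deficient mice had spontaneous colitis. Cells of the lamina propria of colon and cecum that were positive for CD45, CD64, CD11b and MHCII and negative for Ly6C, CD103 and Ly6G were sorted, and 1 RNA-seq library was made per mouse. The comparisons used 4 WT, 4 IL10RAKO and 4 DKO mice, while a further WT mouse (mouse 11) and the single CCR2KO mouse gave values only.

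*Ms4a* genes encode small proteins that span the membrane several times and sit beside immune receptors, where they tune signalling. The best known are *Ms4a1*, which encodes CD20 of B cells, and *Ms4a2*, which encodes the beta chain of the high-affinity IgE receptor of mast cells. Several others, among them *Ms4a4a*, *Ms4a6c*, *Ms4a6d* and *Ms4a7*, are genes of monocytes and macrophages, and variants at the human locus are linked to the risk of Alzheimer's disease. IL-10 acts on macrophages through a receptor whose ligand-binding chain is encoded by *Il10ra*, and *Ccr2* encodes the chemokine receptor by which monocytes leave the bone marrow and enter tissue.

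Total counts per library ranged from 12153000 to 21216468 over the 14 libraries. CPM are counts scaled to a common library size with trimmed mean of M-values (TMM) factors, and RPKM are CPM divided by the summed exon length in kb. *Il10ra* averaged 284 CPM in WT mice, 7.41 in IL10RAKO mice and 5.31 in DKO mice, and *Ccr2* averaged 593, 476 and 5.67 CPM. The 11 macrophage markers included *Adgre1*, *Csf1r* and *Fcgr1*. Their summed CPM was 23376 to 29146 in WT, 29077 to 41532 in the IL10RAKO and 24282 to 32768 in DKO mice. The MHCII gene *H2-Ab1* made the largest part of these sums, averaging 15868, 24213 and 20216 CPM. Of the 11, *Fcgr1* and *H2-Ab1* rose in IL10RAKO mice and none fell. In DKO mice *Mertk* rose, and *Adgre1* and *Cx3cr1* fell. Transcripts of other cell types were also present. The 6 fibroblast markers were all lower in both mutant groups, with sums of 294 to 577 CPM in WT, 15.0 to 53.7 in the IL10RAKO and 16.1 to 67.0 in DKO mice. Epithelial markers summed to 43.7 to 894 CPM in the 4 compared WT mice, the highest in mouse 10, and to 2214 CPM in WT mouse 11. Of the tested markers, 3 of 4 of neutrophils and 1 of 2 of mast cells were higher in both mutant groups, as were 2 of 5 of dendritic cells in IL10RAKO and 1 of 5 in DKO mice, and no epithelial, B or plasma cell marker changed. In bulk RNA, fewer cells of a type and less RNA per cell cannot be told apart.

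The 9 genes lie on chromosome 19 (GRCm38) within a span of 537.4 kb, from 11067471 to 11604849. *Ms4a8a* (11067471 to 11081102, minus strand) stands at one end, followed by *Ms4a7* (11321039 to 11336146, minus strand). Then come *Ms4a4a* (11375523 to 11392790), *Ms4a4c* (11404770 to 11427246), *Ms4a4b* (11443553 to 11467055), *Ms4a6c* (11469366 to 11482192), *Ms4a6b* (11516512 to 11531256) and *Ms4a4d* (11536801 to 11558467), all on the plus strand. *Ms4a6d* (11586604 to 11604849, minus strand) closes the row. The genes arose by duplication, which bears on how reads are assigned. No stretch of 150 bases, the read length, in the exons of any member occurred in the same orientation in another annotated transcript. Opposite orientation was not searched at 150 bases, whereas 50-base stretches were searched in both. Of the 50-base stretches, 51.4% of those of *Ms4a6c* occurred elsewhere, as did 8.19% of those of *Ms4a4c*, chiefly in *Ms4a4b*, and at most 3.57% of those of each of the other 7. *Ms4a6c* shares 1088 exon bases with *BE692007*, a transcript of the opposite strand, which held 993 of its 1028 shared 50-base stretches. Whole reads can therefore fall within both genes. The cDNA chemistry does not keep strand, so reads from these shared bases cannot be told apart by strand. The counting strand and the handling of reads with several matches are not given in the sources used here. The values of *Ms4a6c* are therefore the least certain.

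Sequence upstream of annotated starts is shown for the pairs that share the longest unbroken runs there, *Ms4a4c* with *Ms4a4b* and *Ms4a6c* with *Ms4a6b*. It is also shown for *Ms4a7*, the abundant member that was lower in the mutant mice. RefSeq (GRCm38.p6) gave upstream sequence for 8 of the 9 members, *Ms4a6d* being the exception. Each run below is the 250 bases before a RefSeq start, 5′ to 3′ on the strand of the gene. For *Ms4a4c* and *Ms4a6b* this start lies inside the gene span given above, and so does the window. The positions are chr19:11407411-11407660, chr19:11443308-11443557, chr19:11469118-11469367 and chr19:11518309-11518558 on the plus strand and chr19:11336147-11336396 on the minus strand, the last being the first of 2 starts of that gene. Capitals mark matches on either strand to GAAANNGAA, a core of the interferon response element, in *Ms4a6c*, *Ms4a6b* and *Ms4a7*, and to GAGGAA, a core bound by the myeloid factor PU.1, in *Ms4a4c* and *Ms4a4b*.
Ms4a4c: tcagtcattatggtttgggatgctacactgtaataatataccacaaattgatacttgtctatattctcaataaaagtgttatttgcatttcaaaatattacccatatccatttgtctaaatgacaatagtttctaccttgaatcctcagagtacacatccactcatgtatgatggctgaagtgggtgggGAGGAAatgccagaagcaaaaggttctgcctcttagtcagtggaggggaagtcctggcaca
Ms4a4b: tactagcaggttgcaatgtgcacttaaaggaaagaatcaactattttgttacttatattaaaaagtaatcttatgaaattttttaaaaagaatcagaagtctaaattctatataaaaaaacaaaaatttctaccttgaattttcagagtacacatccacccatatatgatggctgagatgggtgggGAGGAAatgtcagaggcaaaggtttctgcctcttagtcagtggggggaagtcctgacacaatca
Ms4a6c: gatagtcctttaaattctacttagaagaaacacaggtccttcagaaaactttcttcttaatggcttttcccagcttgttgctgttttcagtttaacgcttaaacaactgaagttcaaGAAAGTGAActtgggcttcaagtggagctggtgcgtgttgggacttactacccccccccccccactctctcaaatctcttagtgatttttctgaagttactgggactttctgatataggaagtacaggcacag
Ms4a6b: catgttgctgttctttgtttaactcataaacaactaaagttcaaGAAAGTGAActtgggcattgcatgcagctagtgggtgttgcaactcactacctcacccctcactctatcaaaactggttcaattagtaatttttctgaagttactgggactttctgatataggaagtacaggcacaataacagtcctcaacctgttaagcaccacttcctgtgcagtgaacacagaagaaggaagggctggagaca
Ms4a7: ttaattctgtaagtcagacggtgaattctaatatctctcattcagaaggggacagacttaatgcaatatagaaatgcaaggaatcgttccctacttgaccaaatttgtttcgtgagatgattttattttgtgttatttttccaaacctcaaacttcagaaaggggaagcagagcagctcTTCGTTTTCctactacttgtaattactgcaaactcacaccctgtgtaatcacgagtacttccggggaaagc

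Among all 32851 RefSeq upstream windows of this length, 7.13% held GAAANNGAA, 23.2% held GAGGAA and 7.02% held TTCNNNGAA, the palindrome bound by STAT factors. No member's window held TTCNNNGAA. The upstream sequences of *Ms4a4c* and *Ms4a4b* were identical at 70.85% of aligned positions, with GAGGAA starting 61 and 64 bases before the start. Those of *Ms4a6c* and *Ms4a6b* shared an unbroken run of 48 bases, which began 49 bases before the start in *Ms4a6c* and 118 bases before it in *Ms4a6b*. Over the whole window *Ms4a6c* and *Ms4a6b* were identical at 47.4% of aligned positions, within the 45.51% to 52.98% of all pairs other than *Ms4a4b* with *Ms4a4c*. A match is a description of letters and shows no binding.

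Ranks and shares by RPKM depend on the summed exon length. That length is 836 bases in 1 transcript for *Ms4a4a* and 4453 bases over 5 transcripts for *Ms4a7*. In CPM, *Ms4a7* averaged more than *Ms4a4a* in WT mice (466 against 376). Per length, *Ms4a4a* was the most abundant member in each genotype. This gene encodes a surface protein of tissue macrophages that joins the beta-glucan receptor dectin-1. It averaged 450 RPKM ± 60.2 (SD, n = 4) in WT mice, 469 ± 103 in IL10RAKO mice and 348 ± 35.2 in DKO mice. In WT mice the next 4 genes were *Ms4a6d* at 111 RPKM, *Ms4a7* at 105, *Ms4a6c* at 94.1 and *Ms4a4c* at 69.0, and each overlapped its neighbour in this order over the mice. *Ms4a6b* followed at 40.9 RPKM, below every WT value of *Ms4a4c*. *Ms4a8a* (8.03), *Ms4a4d* (2.43) and *Ms4a4b* (0.780 RPKM) were low, again with overlapping neighbours. Among the 12 compared mice these low genes lay below the other 6 in each genotype, whereas in WT mouse 11 *Ms4a8a* (61.5 RPKM) lay above *Ms4a6b* (38.7 RPKM).

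The order below *Ms4a4a* changed in the mutant mice. In IL10RAKO mice *Ms4a6d* (217 RPKM), *Ms4a4c* (177) and *Ms4a6c* (141) came next with overlapping ranges, and *Ms4a7* (34.2) came sixth, overlapping *Ms4a6b* (43.9). In DKO mice *Ms4a6d* stood alone in second place at 218 RPKM, ahead of *Ms4a6c* (123) and *Ms4a4c* (120), and *Ms4a7* was again sixth at 25.3. As a share of the summed RPKM of the 9 genes, *Ms4a7* made up 11.6% in WT, 3.33% in IL10RAKO mice and 2.87% in DKO mice. *Ms4a4c* made up 8.00%, 16.1% and 13.7% and *Ms4a4a* 51.4%, 43.2% and 39.8%. The share of *Ms4a6d* was 11.2% to 14.1% in WT, 15.3% to 22.3% in IL10RAKO mice and 23.3% to 26.5% in DKO mice, and WT mouse 11, at 15.6%, lay within the IL10RAKO range. The summed CPM of all 9 overlapped between the genotypes, with means of 1557 in WT, 1738 in IL10RAKO mice and 1424 in DKO mice. The shares of *Ms4a7*, *Ms4a4c* and *Ms4a6d*, in contrast, did not overlap between WT and mutant mice among the 12 compared.

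**Figure D1:**
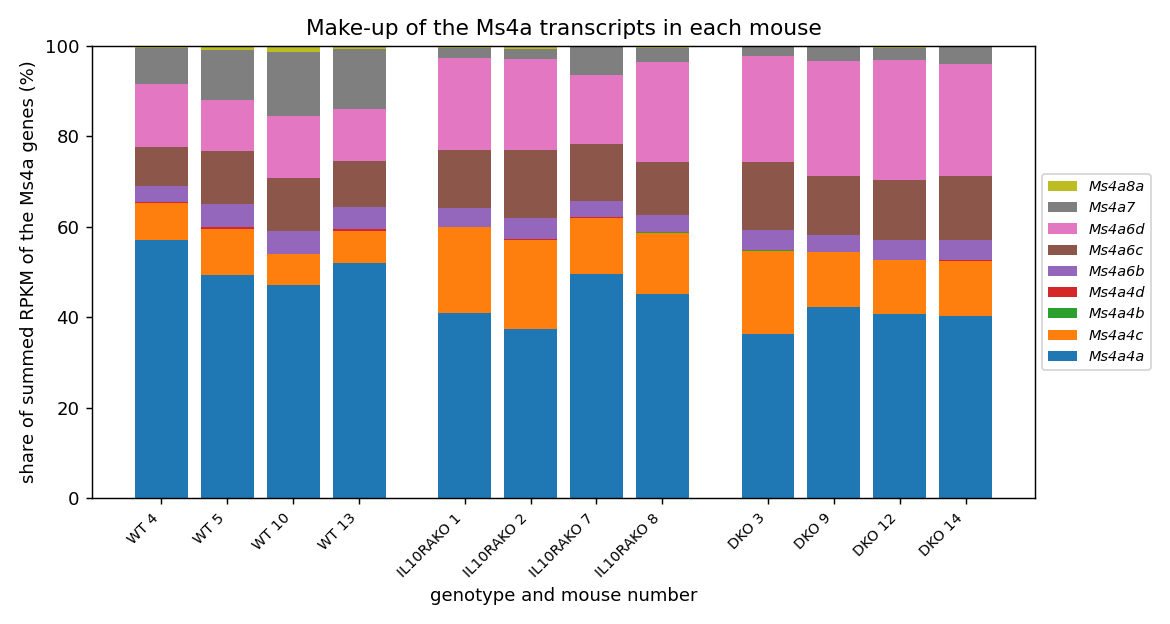
Share of the summed RPKM of the 9 Ms4a genes (percent, vertical axis) in each of the 12 compared mice, grouped by genotype, with 1 colour per gene. The grey share of Ms4a7 lies between 7.83% and 14.3% in the WT mice and between 2.08% and 6.03% in the IL10RAKO and DKO mice, while the pink share of Ms4a6d is 11.2% to 14.1% in WT and 15.3% to 26.5% in the mutant mice.

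The comparison of IL10RAKO with WT asks how these macrophages differ in mice without the IL-10 receptor. The deletion is germline and these mice had colitis. Loss of the receptor in the macrophage and the inflamed tissue around it therefore cannot be told apart. Of the 9 members, *Ms4a4c* and *Ms4a6d* rose and *Ms4a7* and *Ms4a4d* fell (edgeR quasi-likelihood test, Benjamini-Hochberg adjusted p under 0.05 over all tested genes). These 4 of 9 stand beside 15.8% of all tested genes, 8.7% higher and 7.1% lower. In DKO against WT the same 4 genes changed in the same directions and *Ms4a8a* also fell, which gave 5 of 9 beside 18.5% of all tested genes, 9.23% higher and 9.22% lower. Both comparisons share the 4 WT mice and are not independent of each other. The median log2 fold change of the 9 was 0.10 in IL10RAKO mice and -0.15 in DKO mice, beside -0.07 and -0.06 over all tested genes, so members moved in both directions. The values of the groups did not overlap for 2 members in IL10RAKO against WT (18.2% of all genes) and for 4 in DKO against WT (22.2%).

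**Figure D2:**
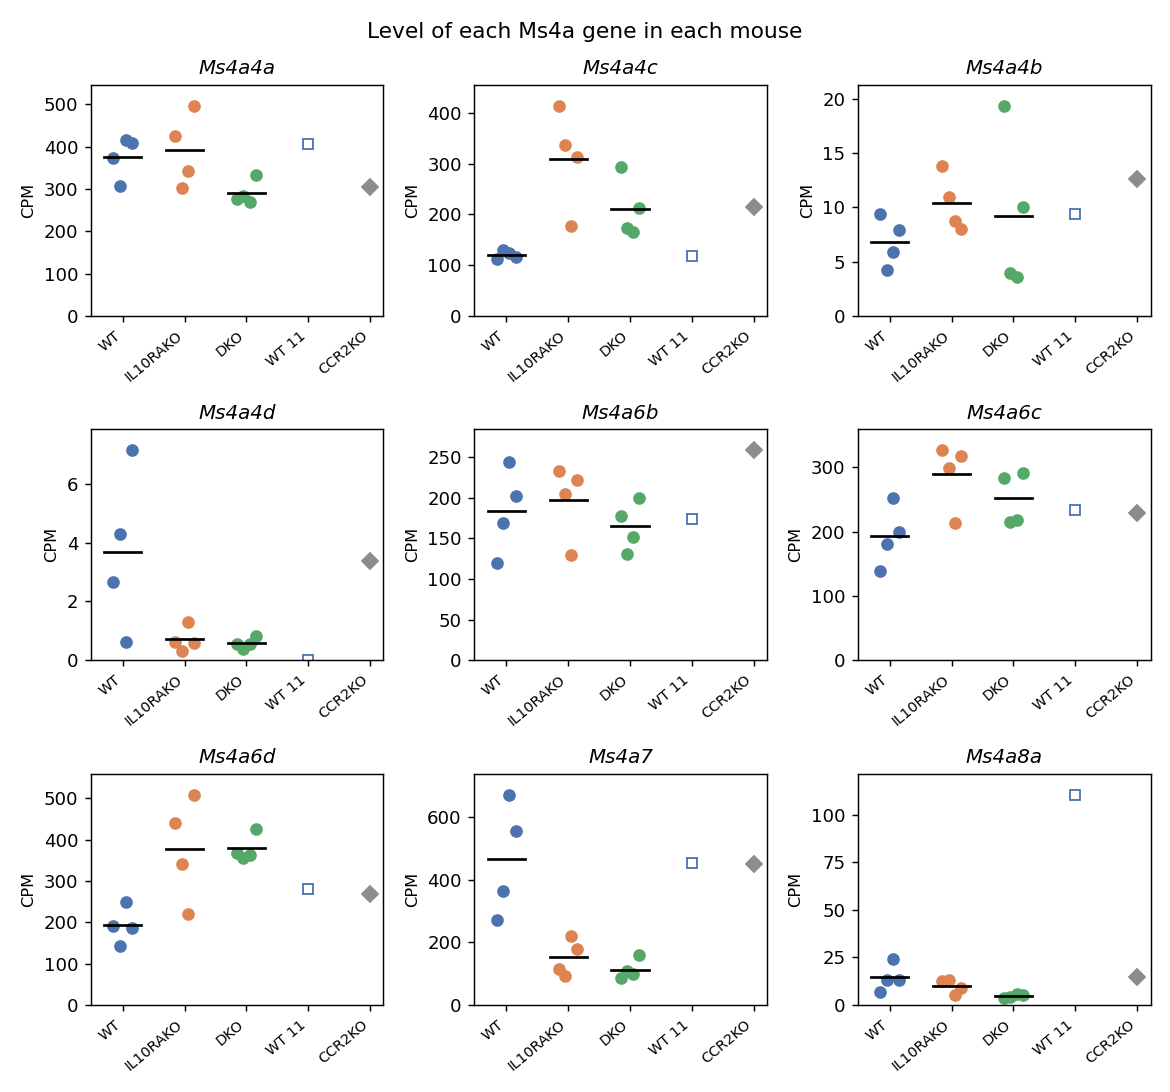
CPM (vertical axis, from 0, with its own range in each panel) of each of the 9 Ms4a genes in each mouse, with circles for the 12 compared mice, black bars for the means of 4, an open square for WT mouse 11 and a grey diamond for the CCR2KO mouse. Ms4a4c and Ms4a6d sit higher and Ms4a7 lower in the mutant groups, and WT mouse 11 stands alone at 110 CPM of Ms4a8a.

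*Ms4a7*, a gene of mature macrophages and of border-associated macrophages of the brain, showed the clearest decrease. It was read at 273, 365, 671 and 554 CPM in WT mice 4, 5, 10 and 13. In IL10RAKO mice 1, 2, 7 and 8 it was read at 115, 93.6, 221 and 180 CPM. In DKO mice 3, 9, 12 and 14 it was read at 85.6, 108, 97.1 and 160 CPM. Every mutant mouse lay below every WT mouse, and IL10RAKO mouse 7 lay nearest to them. The level in WT was 3.05 times that in IL10RAKO mice (log2 fold change -1.61 ± 0.321 SE, adjusted p = 0.00325) and 4.13 times that in DKO mice (-2.05 ± 0.325, adjusted p = 5.35e-04). Both calls held under all 21 alternative settings tried.

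The genes whose levels followed *Ms4a7* most closely over the 12 mice, by mean absolute difference of centred log2 CPM, were *Selenop* (0.172), *Pdgfa* (0.180) and *Serpinb8* (0.205), against a median of 0.903 over all tested genes. Of 17 genes of resident and alternatively activated macrophages, 11 fell and 1 rose in IL10RAKO mice, and 12 fell and 2 rose in DKO mice, with median log2 fold changes of -2.09 and -3.21 beside the -0.07 and -0.06 of all tested genes. *Mrc1*, which encodes the mannose receptor CD206, fell from 481 CPM in WT to 113 in IL10RAKO mice and 51.7 in DKO mice (adjusted p = 0.00448 and 2.23e-04). The list was drawn up with earlier results of these data known and gives no independent evidence of a direction. IL10RAKO mouse 7, with the highest *Ms4a7* of the mutant mice, also had the highest *Mrc1* of them at 226 CPM. Fibroblast markers fell in both comparisons as given above, and their part in the decrease of *Ms4a7* was not tested.

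*Ms4a4c* showed the largest increase among the members in IL10RAKO mice. Its level was 112, 131, 124 and 117 CPM in WT mice 4, 5, 10 and 13. It was 414, 336, 177 and 312 CPM in IL10RAKO mice 1, 2, 7 and 8. In DKO mice 3, 9, 12 and 14 it was 293, 172, 165 and 212 CPM. The 4 WT mice lay close together and every mutant mouse lay above them, with IL10RAKO mouse 7 among the DKO values. The level was 2.56 times that of WT in IL10RAKO mice (log2 fold change 1.36 ± 0.240 SE, adjusted p = 0.00140) and 1.74 times in DKO mice (0.80 ± 0.237, adjusted p = 0.0300). The DKO call was lost without DKO mouse 3 (log2 fold change 0.61, adjusted p = 0.0976), without WT mouse 4, 10 or 13 or DKO mouse 14 (adjusted p = 0.0506 to 0.0685), and with library totals in place of TMM (0.55, adjusted p = 0.110).

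The closest companions of *Ms4a4c* over the 12 mice were *Ifitm3* (0.170) and *Oas1a* (0.185), both interferon-induced antiviral genes, and *Tspo* (0.194), against a median of 0.662. Of 20 interferon-induced genes, 18 rose in IL10RAKO mice and 16 in DKO mice and none fell, with median log2 fold changes of 1.88 and 1.70. Their summed CPM was 1590 to 1930 in WT, 6093 to 8627 in IL10RAKO mice and 6842 to 8498 in DKO mice, lowest among the mutant mice in IL10RAKO mouse 7. *Ly6c2*, a monocyte gene, averaged 6.50 CPM in WT, 109 in IL10RAKO mice and 81.8 in DKO mice (adjusted p = 4.51e-06 and 8.97e-06), although the sort kept Ly6C- cells. Whether such transcripts had a part in the increase of *Ms4a4c* was not tested.

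*Ms4a4b*, the neighbouring duplicate of *Ms4a4c*, is best known from T cells, where its protein associates with the receptor GITR. It was low, with 9.36, 4.22, 5.88 and 7.92 CPM in the WT mice in the order above. The IL10RAKO mice had 13.8, 11.0, 8.70 and 7.99 CPM, and the DKO mice 19.3, 3.98, 3.58 and 10.0. The groups overlapped throughout, and DKO mouse 3 alone set the upper end. The log2 fold changes against WT were 0.60 (95% interval -0.40 to 1.59, adjusted p = 0.429) in IL10RAKO mice and 0.43 (-0.56 to 1.43, adjusted p = 0.564) in DKO mice. Without DKO mouse 3 the latter was -0.21. T and NK cell markers were present in every group, with sums of 158 to 212 CPM in WT, 89.4 to 174 in the IL10RAKO and 94.7 to 172 in DKO mice, the highest DKO value being that of mouse 3. *Cd4* was the largest contributor to these sums, at 111, 62.0 and 59.4 CPM, and fell in both comparisons (edgeR, adjusted p = 0.0485 and 0.0319). Prior work cited by the authors found CD4 on part of the mature Ly6C- intestinal macrophages. The sums need not come from T and NK cells alone. *Nkg7* rose in DKO mice (1.86 to 7.48 CPM, edgeR, adjusted p = 0.0350), and the other 7 tested markers did not pass. The median log2 fold change of the 9 tested markers was 0.44 in IL10RAKO and 0.40 in DKO mice. Their part in the level of *Ms4a4b* was not tested.

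The *Ms4a6* genes differed from each other in response. *Ms4a6d*, whose protein is reported to act with VSIG4 in macrophages, rose in both mutant groups. It was read at 192, 144, 249 and 186 CPM in WT mice. The IL10RAKO mice had 440, 341, 219 and 508 CPM and the DKO mice 369, 357, 363 and 427 CPM. The DKO mice lay close together above all WT mice, while IL10RAKO mouse 7 lay within the WT range. The increase was 1.96-fold in IL10RAKO (log2 fold change 0.97 ± 0.232 SE, adjusted p = 0.0108) and 1.97-fold in DKO mice (0.97 ± 0.232, adjusted p = 0.00919). With library totals in place of TMM the first was 0.63 with an adjusted p of 0.0503. Genes with the most similar levels were *Hrh2* (0.124), a histamine receptor, *Pla2g4a* (0.133), a phospholipase, and *Ctss* (0.133), the protease cathepsin S of antigen presentation, against a median of 0.617.

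*Ms4a6c* was read at 138, 181, 253 and 199 CPM in WT, 326, 299, 214 and 318 in IL10RAKO mice and 284, 215, 217 and 291 in DKO mice. WT mouse 10 overlapped both mutant groups. The log2 fold change was 0.58 (95% interval 0.15 to 1.01, adjusted p = 0.0640) in IL10RAKO mice and 0.38 (-0.04 to 0.81, adjusted p = 0.209) in DKO mice, and neither passed the threshold. The IL10RAKO difference passed with DESeq2 (adjusted p = 0.0317), without IL10RAKO mouse 7 (0.0248) and without WT mouse 10 (0.0271). *Ms4a6b* was read at 119, 169, 243 and 202 CPM in WT, 232, 205, 130 and 221 in IL10RAKO mice and 178, 131, 151 and 199 in DKO mice. The genotypes overlapped fully for *Ms4a6b*. Its log2 fold change was 0.10 (95% interval -0.40 to 0.60) in IL10RAKO, a direction that turned with library totals (-0.23) and without WT mouse 4 (-0.05), and -0.15 (-0.65 to 0.34) in DKO mice, which turned without WT mouse 10 (0.016).

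*Ms4a4a* did not pass the test in any comparison. Its level was 373, 306, 416 and 409 CPM in WT, 426, 303, 342 and 496 in IL10RAKO mice and 276, 284, 269 and 334 in DKO mice. Only DKO mouse 14 reached the WT range. The log2 fold change was 0.06 (95% interval -0.31 to 0.43, adjusted p = 0.860) in IL10RAKO mice, and its sign turned with library totals (-0.27), without WT mouse 5 (-0.02) and without IL10RAKO mouse 8 (-0.07). In DKO mice it was -0.37 (-0.74 to -0.003, adjusted p = 0.156), and with library totals it was -0.63 with an adjusted p of 0.0125.

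The remaining members were low and uncertain. *Ms4a4d* was read at 2.67, 4.28, 0.621 and 7.13 CPM in WT, 0.626, 0.311, 1.31 and 0.594 in IL10RAKO mice and 0.552, 0.374, 0.562 and 0.840 in DKO mice, which amounts to 5 to 107 reads per library. WT mouse 10 lay within the mutant ranges, and WT mouse 11 had 0 reads, where 3 reads would be 0.220 CPM. The log2 fold change was -2.34 ± 0.714 SE (adjusted p = 0.0384) in IL10RAKO mice and -2.63 ± 0.724 (adjusted p = 0.0204) in DKO mice. The IL10RAKO call was lost under 11 of 20 alternatives, including the omission of any of IL10RAKO mice 1, 2 and 8, DKO mice 3, 9 and 12 and WT mice 5 and 13 (adjusted p = 0.0515 to 0.136), and the DKO call under 5, including the omission of any of DKO mice 3, 9 and 12 and WT mouse 13 (0.0553 to 0.0782). With WT mouse 11 added the adjusted p was 0.238 and 0.172. *Dcbld2* (0.335), *Dact3* (0.354) and the complement inhibitor gene *Serping1* (0.407) were nearest in level over the mice, against a median of 1.09. The part of the fibroblast transcripts, which fell in the same comparisons, was not tested.

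*Ms4a8a* has been described in alternatively activated macrophages and in intestinal epithelium. It was read at 7.02, 13.0, 24.4 and 13.3 CPM in WT mice, at 12.7, 13.0, 5.06 and 8.92 in IL10RAKO mice and at 3.70, 4.23, 5.48 and 5.34 in DKO mice. Every DKO mouse lay below every WT mouse, whereas IL10RAKO mice overlapped both. The level in WT was 3.07 times that in DKO mice (log2 fold change -1.62 ± 0.378 SE, adjusted p = 0.00815), and the call held under all 21 alternatives. In IL10RAKO mice the log2 fold change was -0.54 (95% interval -1.33 to 0.24, adjusted p = 0.355). WT mouse 11 had 110 CPM, and with it in the fit the log2 fold changes became -1.76 (IL10RAKO) and -2.83 (DKO). WT mice 10 and 11, with the highest *Ms4a8a*, also had the highest epithelial marker sums of all 14 libraries (894 and 2214 CPM). The DKO mice had epithelial sums of 111 to 168 CPM, which lay within the range of the 4 compared WT mice. The part of epithelial RNA in the WT level was not tested.

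The comparison of DKO with IL10RAKO mice asks how the macrophages differ when *Ccr2* is lost as well. The authors reported less severe colitis in DKO than in IL10RAKO mice. Loss of *Ccr2* and the degree of colitis therefore cannot be told apart here. None of the 9 members passed the threshold (edgeR, 0 of 9, beside 0.0457% of all tested genes), and none did with DESeq2. At an unadjusted p under 0.05 there were 3, namely *Ms4a4a*, *Ms4a4c* and *Ms4a8a*, all lower in DKO mice, beside 2.95% of all tested genes at the same threshold. The largest difference was that of *Ms4a8a*, with a log2 fold change of -1.08 (95% interval -1.88 to -0.27). *Ms4a4c* differed by -0.56 (-1.06 to -0.05) and *Ms4a4a* by -0.43 (-0.80 to -0.06). For *Ms4a6d* the value was 0.01 with an interval of -0.49 to 0.50, and for *Ms4a7* it was -0.44 with an interval of -1.11 to 0.24. No member had groups that did not overlap, a state reached by 2.41% of all tested genes. A difference that missed the threshold is not shown to be 0.

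**Figure D3:**
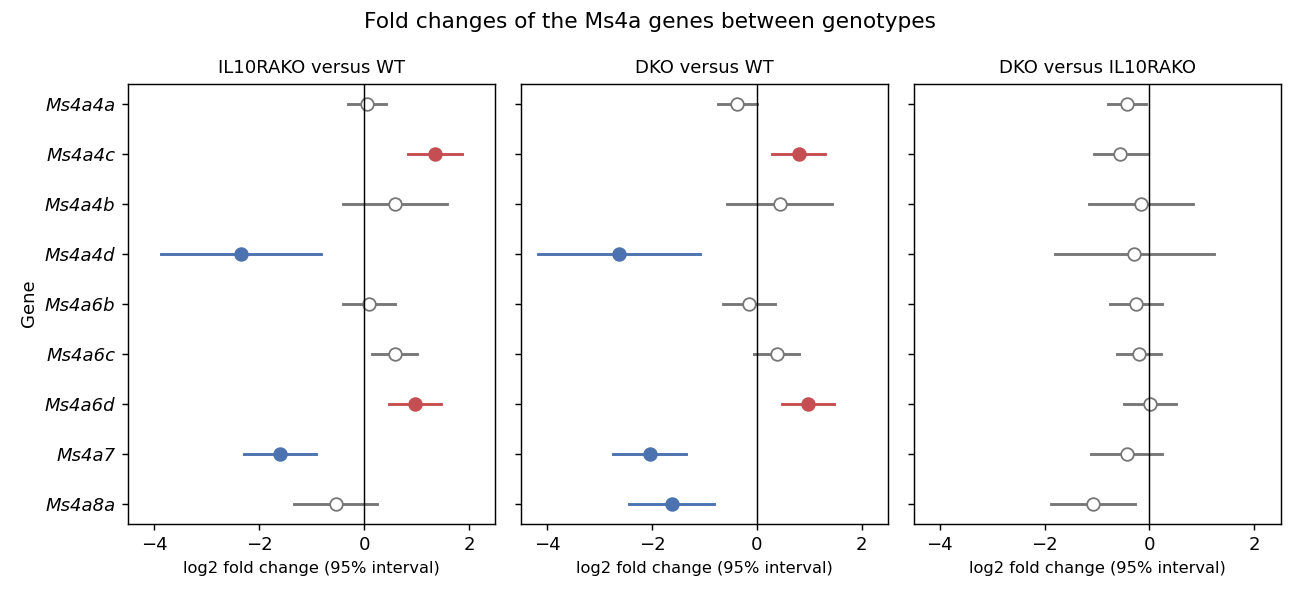
Log2 fold change (horizontal axis) of each Ms4a gene in the 3 comparisons, with 95% intervals as lines. Filled points passed an adjusted p of 0.05 (red higher, blue lower) and open grey points did not, and in DKO against IL10RAKO all 9 points are open.

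Along the chromosome, genes that rose and genes that fell were not grouped at separate ends of the cluster. Neighbours shared a state in places. *Ms4a4b*, *Ms4a6c* and *Ms4a6b*, in a row, did not pass, and *Ms4a8a* and *Ms4a7* both fell in DKO mice. *Ms4a4d*, which was lower, lies between *Ms4a6b*, which did not pass, and *Ms4a6d*, which was higher. *Ms4a4c*, which was higher, lies between *Ms4a4a* and *Ms4a4b*, neither of which passed. Between the outermost members lie 7 further listed genes, of which *Ms4a1* and *Gm8369* could be tested and neither changed. Of 50 listed genes within 0.5 Mb of the cluster or inside it, 21 could be tested. *AW112010*, a transcript induced in macrophages by bacterial and interferon signals, *Slc15a3*, a lysosomal peptide transporter of macrophages, and *Ccdc86* rose in both comparisons. No neighbour fell. The 3 called of 21 tested stand beside 15.8% of all tested genes in IL10RAKO and 18.5% in DKO mice. The shares of all tested genes that were higher were 8.7% and 9.23%. *AW112010* averaged 68.0 CPM in WT, 491 in IL10RAKO mice and 526 in DKO mice (log2 fold changes 2.85 and 2.95, adjusted p = 3.93e-05 and 2.56e-05). *Slc15a3* averaged 66.6, 166 and 153 CPM, and *Ccdc86* 39.8, 116 and 108 CPM.

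**Figure D4:**
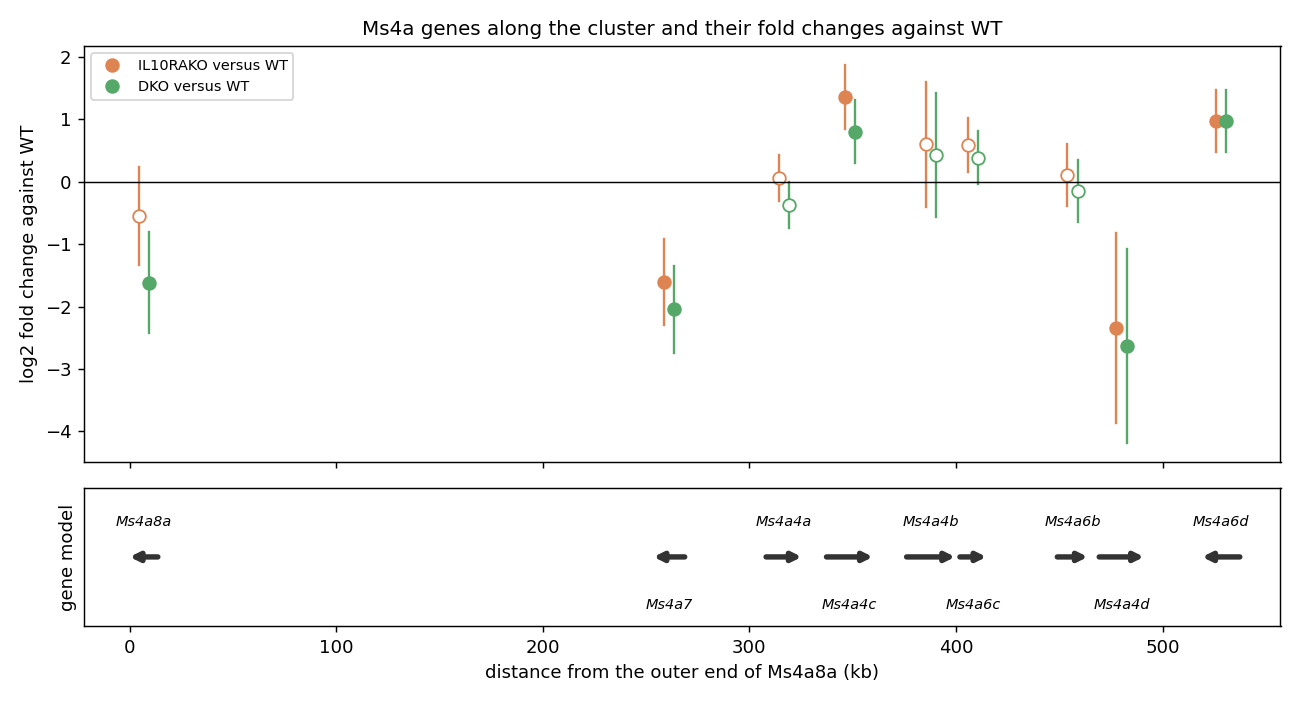
Log2 fold change against WT with 95% intervals (upper panel, vertical axis) for IL10RAKO (orange) and DKO (green) mice at the position of each Ms4a gene, as distance in kb along the cluster, with arrows for gene models and their direction of transcription (lower panel). Filled points passed an adjusted p of 0.05, and higher and lower genes stand side by side, as at Ms4a4d and Ms4a6d.

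Among the other *Ms4a* genes, *Ms4a1* was read at a level near that of *Ms4a4c* in WT mice and the rest had few or no reads. Of 12 further family members sought, 8 were listed. *Ms4a5* and *Ms4a13* had no reads in the 12 compared mice, where 3 reads would be 0.124 to 0.211 CPM. Only *Ms4a1* (CD20) had enough reads to test, at 129 CPM in WT, 104 in IL10RAKO mice and 110 in DKO mice (log2 fold changes -0.31 and -0.23, adjusted p = 0.648 and 0.737). B and plasma cell markers, *Ms4a1* among them, summed to 391 to 1851 CPM over the 12 mice with overlapping genotypes. *Ms4a2*, the mast cell gene, had 0 reads in each of the 4 WT mice and averaged 0.103 CPM in IL10RAKO mice and 0.253 in DKO mice.

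The related genes *Tmem176a* and *Tmem176b*, which encode ion channels of similar topology in macrophages and dendritic cells, were both lower. *Tmem176b* was read at 780, 682, 935 and 781 CPM in WT, 479, 272, 532 and 552 in IL10RAKO mice and 223, 272, 170 and 251 in DKO mice. All mutant mice lay below all WT mice. The log2 fold change was -0.79 (adjusted p = 0.0229) in IL10RAKO mice and -1.80 (adjusted p = 6.83e-05) in DKO mice for *Tmem176b*, and -0.97 (adjusted p = 0.00588) and -1.93 (adjusted p = 3.14e-05) for *Tmem176a*.

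Of 6 genes of reported MS4A partners and of signalling downstream of them, only *Clec7a*, which encodes dectin-1, rose in both mutant groups. It was read at 163, 331, 252 and 355 CPM in WT, 1083, 1617, 848 and 1050 in IL10RAKO mice and 1082, 1256, 1229 and 1402 in DKO mice. Dectin-1 transcripts were thus higher in every mutant mouse, with log2 fold changes of 2.06 (adjusted p = 6.80e-05) and 2.17 (adjusted p = 3.70e-05), while those of its partner *Ms4a4a* had fold changes of 0.06 and -0.37. *Card9*, the adaptor downstream of dectin-1, passed in DKO mice (log2 fold change 1.21, adjusted p = 0.0319) but not in IL10RAKO mice (0.97, adjusted p = 0.0883). *Syk*, *Tyrobp*, *Trem2* and *Tnfrsf18*, which encodes GITR, did not pass in either comparison. *Trem2*, the microglial lipid receptor whose shedding MS4A4A is reported to modulate, averaged 47.3 CPM in WT, 43.6 in IL10RAKO mice and 38.9 in DKO mice.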

How the data were processed

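Sorted macrophages gave SMART-Seq v4 cDNA, a chemistry that does not keep strand, sequenced as paired 150-base reads. Per the labels and methods, the authors demultiplexed with bcl2fastq 2.20, aligned to mm10 and counted reads per gene with STAR 2.5.1b, and deposited raw counts of 24982 genes in 14 libraries. The authors also deposited edgeR 3.34.0 pseudocounts, a score per gene for 12 of the libraries, used here only to see which libraries were kept. Depth was 12153000 to 21216468 reads. Replicates differed well beyond counting noise (lowest chi-square per degree of freedom 30.0).

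Counts of 12 libraries (4 WT, 4 IL10RAKO, 4 DKO) were filtered with filterByExpr (minimum count 10), TMM-normalized and fitted together with the quasi-likelihood test of edgeR 4.0.16 (R 4.3.3, limma 3.58.1, legacy deviance), with Benjamini-Hochberg adjustment over 13136 genes. WT mouse 11, absent from the pseudocounts, entered an alternative only, and the CCR2KO mouse no test. On simulated counts for IL10RAKO versus WT, 200 of 13136 genes were changed at each fold. Of these, 0.5% of 1.5-fold, 18% of 2-fold and 76.5% of 4-fold changes were recovered. The data had 2076 genes called in this comparison, so these rates need not hold for the data. Alternatives were DESeq2 1.42.0, other scalings, filters, deviance and dispersion, other sets of libraries and the omission of each mouse. Likeness was the mean absolute difference of log2 CPM (prior count 2), each gene centred over the 12 libraries, and the 3 nearest genes outside the family were named. Gene models came from GENCODE vM21 and upstream sequence from RefSeq, searched with Python 3.11.15 and Biopython 1.88. Named genes were all members, the family and partner lists, targeted genes, neighbours called in both comparisons with WT or lying between members, and examples from the marker lists. The members and lists were chosen with earlier results of these data known.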

Additional observations from a re-analysis of the deposited data

Results flagged for a closer look

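The single CCR2KO library, which entered no comparison, lay above all 4 compared WT mice for 4 of the 9 genes, a state reached by 21.8% of all tested genes. It had 12.59 CPM of *Ms4a4b*, 214.03 CPM of *Ms4a4c*, 257.88 CPM of *Ms4a6b* and 269.13 CPM of *Ms4a6d*. For *Ms4a4c* this lay within the range of the DKO mice, and for *Ms4a6d* below all of them. *Ms4a7* in the same library was 449 CPM, within the WT range, and its interferon-induced genes summed to 2393 CPM, above the WT mice and below the mutant mice. WT mouse 11 had 279 CPM of *Ms4a6d*, so the CCR2KO value lay within the range of all 5 WT mice for that gene. With 1 library there was no test. Dixon's test on log2(CPM + 1), run on 36 groups of 4 or 5 mice, marked 0 mice as outlying, and the 110 CPM of *Ms4a8a* in WT mouse 11, against 7.02 to 24.4 CPM in the other WT mice, did not pass it either.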

How the results depend on the processing

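Over 21 alternatives per comparison (20 for *Ms4a4d*, which a minimum count of 30 removed), the calls of *Ms4a7* in both comparisons with WT, of *Ms4a4c* in IL10RAKO mice and of *Ms4a6d* and *Ms4a8a* in DKO mice kept direction and threshold. The number of members called against WT with 1 mouse left out ranged from 3 to 5 in both comparisons, and in DKO mice it was 3 without DKO mouse 3 or WT mouse 13. None was called between DKO and IL10RAKO mice in any alternative. Library totals moved the median of all genes by -0.31 (IL10RAKO) and -0.25 (DKO). The split of called members then went from 2 higher and 2 lower to 1 and 2 in IL10RAKO, and from 2 and 3 to 1 and 4 in DKO mice, while the share of higher calls among all genes went from 55.1% to 23.8% and from 50.0% to 25.9%. Directions that turned belonged to comparisons without a call. In IL10RAKO against WT, library totals gave -0.27 for *Ms4a4a* and -0.23 for *Ms4a6b*, and leaving out 1 mouse gave -0.068 to 0.17 and -0.051 to 0.27. In DKO against WT, leaving out 1 mouse gave -0.21 to 0.71 for *Ms4a4b* and -0.31 to 0.0156 for *Ms4a6b*. In DKO against IL10RAKO it gave -0.81 to 0.11 for *Ms4a4b*, -0.54 to 0.21 for *Ms4a4d* and -0.16 to 0.19 for *Ms4a6d*. Among all genes, DESeq2 called 24 between DKO and IL10RAKO mice and edgeR 6 (10 without IL10RAKO mouse 2). The causes were not tested. No paired analysis was possible because each mouse belongs to 1 genotype and its number occurs once. With 4 mice per group, changes below 4-fold were often missed on simulated counts in which 200 genes were changed. A gene without a call is not shown to be equal.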
